A study of Homo sapiens with 6 samples.

Results

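Keratins are the intermediate filament proteins of epithelial cells. Each filament is built from pairs of a type I (acidic) and a type II (basic or neutral) chain, and a keratin chain left without a partner is degraded. KRT8 with KRT18 is the pair of simple epithelia, and KRT7 and KRT19 are added to it in ducts, which makes them routine markers of pancreatic ductal carcinoma. The 10 keratin genes described here were taken from the deposited table by gene name. They are the simple epithelial keratins KRT7, KRT8, KRT18, KRT19, KRT20 and KRT23, and the stratified and stress-associated keratins KRT10 and KRT17. The others are KRT80, which forms filaments near desmosomes, and the hair keratin KRT81. All 10 names were found among the 58302 genes of the table, and 7 of the 10 had enough counts to be tested, among 15144 tested genes in all.

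RNA was sequenced in 6 libraries from cells labelled Hs766T, an established human pancreatic adenocarcinoma line, which the sample titles spell HS7666T. The identity of the line was not checked here beyond its markers, and the marker values below are those of cells with that label. In 3 of them the cells overexpressed DDX18, a nucleolar RNA helicase (genotype ex-DDX18), and in 3 they were controls titled plvx with the genotype WT. The series asks what high DDX18 does to other transcripts, and describes the 3 libraries of a group as repeated sequencing, so the p-values measure a spread between libraries that may be technical. The sources used here do not say whether the overexpressing cells were a clone or a mixed population. Total counts were 15911875 to 16207995 per library. DDX18 itself measured 187.2, 197.4 and 176.9 CPM (counts divided by a library size scaled with TMM) in the DDX18 libraries and 89.4, 82.4 and 98.3 CPM in the controls, with no overlap (edgeR adjusted p = 0.00982). That call was lost without DDX18 replicate 2 (adjusted p = 0.0544), without control replicate 2 (0.0643) and with the replicate number as a block (0.153).

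The coding sequence at the start of the central rod domain shows how the type I members differ from each other. The 60 bases that begin this helix are shown for KRT18, KRT17 and KRT10, the type I members with at least 1 CPM, and for KRT19, from GENCODE 29 transcripts on GRCh38, 5′ to 3′. Capitals mark bases that differ from KRT18.
KRT18: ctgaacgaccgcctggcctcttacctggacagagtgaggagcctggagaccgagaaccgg
KRT19: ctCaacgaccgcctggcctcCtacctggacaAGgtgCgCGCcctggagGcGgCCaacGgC
KRT17: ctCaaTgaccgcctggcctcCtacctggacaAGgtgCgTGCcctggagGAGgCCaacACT
KRT10: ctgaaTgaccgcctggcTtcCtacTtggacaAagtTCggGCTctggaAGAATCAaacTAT

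Against KRT18, KRT19 was equal at 46 of the 60 bases, KRT17 at 43 and KRT10 at 40. Each stretch lies within a single exon. The KRT18 stretch is at chr12:52949432-52949491 on the plus strand. The KRT19 stretch is at chr17:41527930-41527989, the KRT17 stretch at chr17:41624180-41624239 and the KRT10 stretch at chr17:40822070-40822129, all on the minus strand.

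The genes lie in the type I and type II keratin clusters. KRT80 (52168996 to 52192000), KRT7 (52232520 to 52252186), KRT81 (52285913 to 52291534), KRT8 (52897187 to 52949954) and KRT18 (52948871 to 52952901) are on chromosome 12, in coordinates of the deposited table, which for these genes are those of GENCODE 29 on GRCh38. KRT18 is the type I gene that sits among the type II genes. KRT10, KRT20, KRT23, KRT19 and KRT17 are on chromosome 17, between 40818117 and 41624842.

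The cells labelled Hs766T expressed a short list of keratins at very unequal levels, led by KRT8. KRT8 measured 1689, 2095 and 2387 CPM in DDX18 replicates 1, 2 and 3 and 2194, 2080 and 1706 CPM in control replicates 1, 2 and 3. DDX18 replicate 1 and control replicate 3 were the low libraries, and the groups overlapped. Its partner KRT18 measured 897.5, 873.8 and 796.0 CPM with DDX18 and 935.0, 918.5 and 1284 CPM in the controls. Control replicate 3 stood above the other 5 libraries, and the groups did not overlap. KRT7, the type II keratin of ducts and glands, measured 687.0, 511.6 and 621.1 CPM with DDX18 and 630.4, 609.9 and 567.1 CPM in the controls. Both the highest and the lowest KRT7 value were in DDX18 libraries.

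**Figure D1:**
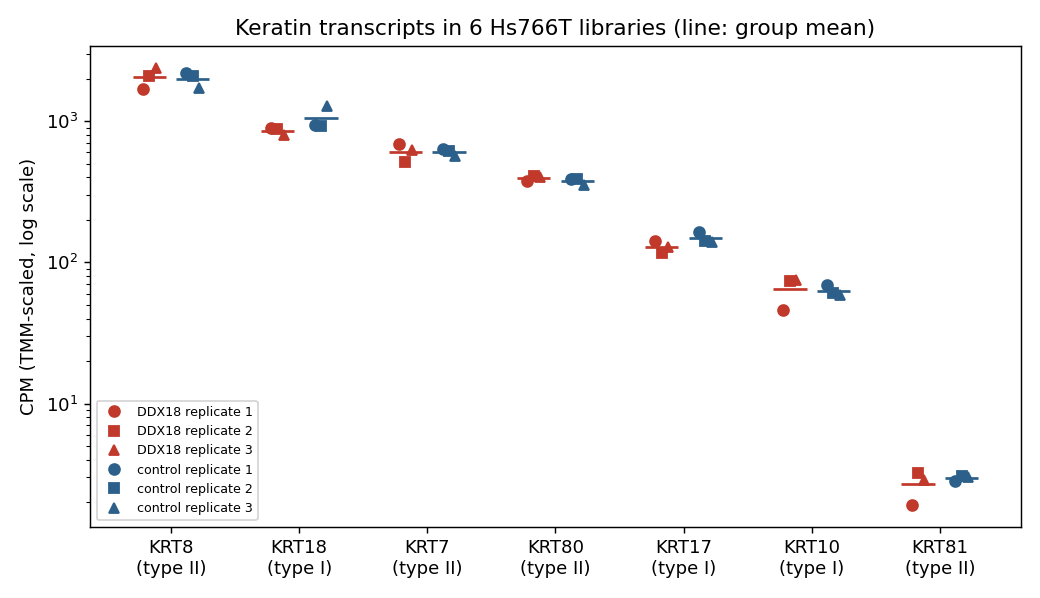
CPM (TMM-scaled, log axis) of the 7 tested keratins, with 1 point per library (red, DDX18; blue, control; the symbol gives the replicate) and a line at each group mean. KRT8 lies between 1689 and 2387 CPM and KRT81 between 1.92 and 3.24 CPM, and KRT18 is the keratin whose groups do not overlap.

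KRT80, a type II keratin that forms filaments near desmosomes, was the steadiest of the 7. It measured 375.0, 409.1 and 400.8 CPM with DDX18 and 389.0, 390.2 and 354.3 CPM in the controls, a coefficient of variation over the 6 libraries of 5.05%. KRT17, a type I keratin induced by injury and often raised in carcinomas, measured 141.9, 115.8 and 128.5 CPM with DDX18 and 162.8, 141.5 and 140.3 CPM in the controls. The groups overlapped, since DDX18 replicate 1 lay between the controls. KRT10, the type I keratin of differentiating epidermis, measured 46.1, 74.1 and 75.1 CPM with DDX18 and 69.3, 60.4 and 59.0 CPM in the controls. DDX18 replicate 1 was the lowest library and the other DDX18 libraries the highest. KRT81, a hair keratin, measured 1.92, 3.24 and 2.89 CPM with DDX18 and 2.83, 3.07 and 3.02 CPM in the controls, on 31 to 52 counts per library, and DDX18 replicate 1 was again the lowest.

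KRT19, the type I keratin most often used to mark pancreatic ducts, had almost no counts. It had 4 counts in DDX18 replicate 3 and 0 in each of the other 5 libraries. A count of 0 allows a level of up to 0.184 to 0.193 CPM at this depth (3 counts per library, counting error only). None of the 75-base windows of the KRT19 transcript occurred in another gene of GENCODE 29, and the 5 KRT19 pseudogenes of the table held 0 counts in all libraries, so no reads were listed under those copies. KRT20, a keratin of intestinal epithelium, had 3, 0 and 2 counts with DDX18 and 0, 0 and 2 in the controls. KRT23, a type I keratin of secretory epithelia, had 1 count in DDX18 replicate 2 and 0 in the other 5 libraries. At these counts no difference between the groups was detectable for KRT19, KRT20 or KRT23.

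Other markers of duct cells were unequal. KRT7 was high, and SOX9 (8.78 to 14.7 CPM) and MUC1 (46.7 to 60.5 CPM) were present. CFTR, the chloride channel of duct cells, stayed at or below 0.754 CPM, and EPCAM, an epithelial adhesion protein, stayed at or below 7.93 CPM. Of the 4 markers of basal or squamous epithelium, KRT5 and KRT6A had 0 counts in every library and KRT14 had 3 counts in control replicates 1 and 3 and 0 elsewhere. TP63, the transcription factor of basal cells, had 11 to 38 counts in every library, or 0.682, 1.37 and 2.39 CPM with DDX18 and 1.61, 0.860 and 0.677 CPM in the controls (edgeR adjusted p = 0.942). VIM, the intermediate filament protein of mesenchymal cells, measured 861.0 to 966.9 CPM with DDX18 and 850.1 to 962.3 CPM in the controls, a level beside those of KRT18 and KRT7 in CPM, which is not scaled for gene length. Of 6 acinar markers 5 had no count in any library, and of 4 endocrine markers 3 had none. Of the fibroblast markers COL1A2 was at 0 counts throughout, COL1A1 averaged 55.1 CPM with DDX18 and 66.8 CPM in the controls and PDGFRB 105.0 and 91.6 CPM, and the summed list was 168.5 to 173.5 and 162.1 to 173.4 CPM. The groups did not overlap in COL1A1 (edgeR adjusted p = 0.814) or PDGFRB (edgeR adjusted p = 0.841), where 11.5% of all genes tested showed no overlap. Neither gene was called, and the part of either in the keratin values was not tested. PECAM1 of endothelium and CD3E of T cells were at 0 in every library, and PTPRC of leukocytes had counts in DDX18 replicate 2 alone (0.125 CPM).

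Of the 54 type I and type II keratin genes in the table, 30 had no count in any library and 11 reached a mean of 1 CPM. Those 11 are the 7 tested members with KRT86, KRT16, KRT34 and KRT4. KRT86, a hair keratin, measured 7.38, 8.61 and 8.48 CPM with DDX18 and 8.64, 7.98 and 6.53 CPM in the controls. KRT16, a stress keratin of epidermis, lay between 6.28 and 8.55 CPM, KRT34, a hair keratin, between 2.38 and 4.28 CPM, and KRT4, a keratin of mucosa, between 1.60 and 2.18 CPM. Groups overlapped in each of these 4 genes. The 10 members held 99.4% to 99.5% of the keratin counts of a library.

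**Figure D2:**
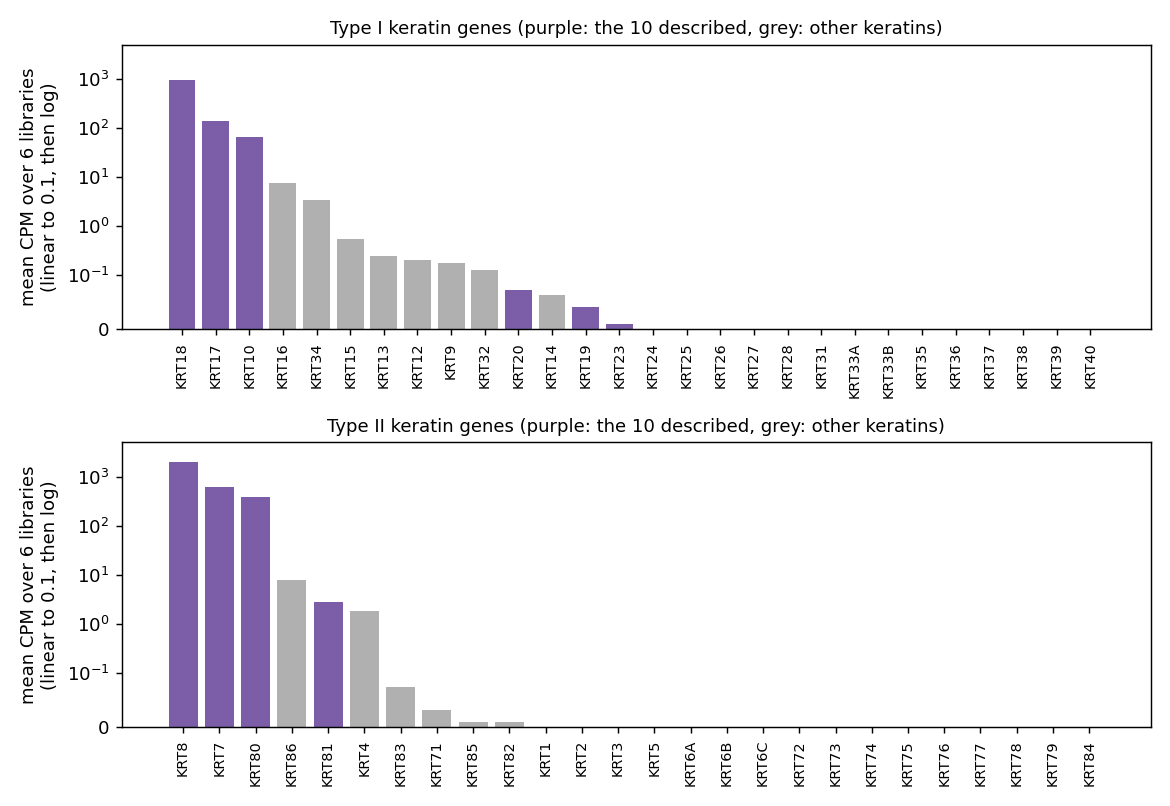
Mean CPM over the 6 libraries for each of 28 type I and 26 type II keratin genes (axis linear to 0.1 and logarithmic above), with the 10 genes described in purple and the other keratins in grey. KRT8, KRT18, KRT7, KRT80, KRT17 and KRT10 exceed 60 CPM, no other keratin exceeds 8 CPM, and 30 genes are at 0.

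To compare genes with each other, CPM was divided by the length in kilobases of the principal coding transcript in GENCODE 29. KRT8 then measured 897.5 to 1268 CPM per kilobase over the 6 libraries, KRT18 533.9 to 861.3, KRT7 291.7 to 391.7, KRT80 91.8 to 106.0, KRT17 73.1 to 102.8, KRT10 21.7 to 35.4 and KRT81 0.997 to 1.68. In that order, KRT80 and KRT17 are the neighbours whose ranges over libraries overlapped. The order at the top depended on the length used. Per kilobase of merged exons, KRT8 (245.5 to 346.8) and KRT18 (247.4 to 399.1) overlapped and could not be ranked, and KRT80 (81.4 to 94.1) lay above KRT17 (37.0 to 52.0). The deposited FPKM used another set of lengths, longer than the principal transcript in each tested member (14233 bases for KRT8 and 6593 for KRT18, against 1882 and 1491), so an FPKM ratio between genes is used only for how it differs between libraries, not for its level.

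Some of these counts may not be assignable to a single gene. The comparison used windows of 75 bases, a length set here, and how reads shared between genes were counted is not known. Of the 75-base windows of the KRT8 transcript, 17.8% also occurred in other genes, 10.5% in the processed pseudogene KRT8P3. KRT8P3 was listed with 1226 to 1711 counts, or 4.42% to 5.03% of the KRT8 count of the same library. The other pseudogenes of members with at least 10 counts on average were KRT8P10, KRT8P12, KRT8P33, KRT8P45, KRT8P47 and KRT17P2, none of them above 144 counts in a library. For KRT81, 36.6% of the windows occurred elsewhere, 33.0% in its neighbour KRT86, so the values of the 2 hair keratins are uncertain. The share was 5.85% for KRT18 and 4.57% for KRT17, and 0% for KRT7, KRT10 and KRT80. KRT8 and KRT18 also overlap on opposite strands, with 525 exon bases in common. The strand setting of the counting is not given in the sources used here, so reads from those bases may have gone to either gene.

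With DDX18 overexpressed, no keratin passed the threshold for a difference from the controls. In RNA from a whole culture, fewer cells with a transcript and less of it per cell cannot be told apart. Of the 7 tested members 0 were called by edgeR's quasi-likelihood test at an adjusted p of 0.05, where 8 of 15144 genes (0.0528%) were called over the whole table, and DESeq2 also called 0 of the 7, with 0.294% of its genes called. At an unadjusted p under 0.05 edgeR gave 0 of the 7, against a background of 5.69% of all genes. DESeq2 gave 1, KRT18 (DESeq2 unadjusted p = 0.0479, adjusted p = 0.9999). The DESeq2 share of all genes at that unadjusted level was not computed, so this 1 has no background beside it. The log2 fold change was positive in 4 members and negative in 3, with a median of 0.0098, beside -0.00079 over all genes tested. The groups did not overlap in 1 of the 7, KRT18, where 11.5% of all genes tested showed no overlap.

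KRT18 had the smallest p of the members. It averaged 855.8 ± 53.1 CPM with DDX18 and 1046 ± 206.6 CPM in the controls (SD, n = 3), a log2 fold change of -0.29 with a 95% interval from -0.60 to 0.019 (edgeR adjusted p = 0.860). Without control replicate 3, the library with the high value, the log2 fold change was -0.12. KRT17 averaged 128.7 ± 13.0 CPM with DDX18 and 148.2 ± 12.7 CPM in the controls, a log2 fold change of -0.20 with an interval from -0.43 to 0.025 (edgeR adjusted p = 0.860). The intervals of both genes leave room for a level in DDX18 cells of 0.661 (KRT18) or 0.742 (KRT17) times the control.

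Of the remaining members, KRT80, KRT7, KRT8 and KRT10 were centred near no difference, with intervals of differing width. KRT80 had the narrowest, a log2 fold change of 0.064 with an interval from -0.097 to 0.22, which is 0.935 to 1.17 times the control. KRT7 had a log2 fold change of 0.0098 (interval -0.24 to 0.26) and KRT8 of 0.045 (-0.28 to 0.37). For KRT10 it was 0.050 (-0.38 to 0.47). KRT81, the member with the fewest counts of those tested, was at -0.15 (-0.68 to 0.39). That interval was the widest, 0.622 to 1.31 times the control. The edgeR adjusted p of these 5 genes was 0.946 to 0.996. Values for the 4 other keratins with at least 1 CPM were 0.30 for KRT34, 0.18 for KRT4, 0.16 for KRT16 and 0.081 for KRT86 on the log2 scale (edgeR adjusted p 0.901 to 0.969).

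**Figure D3:**
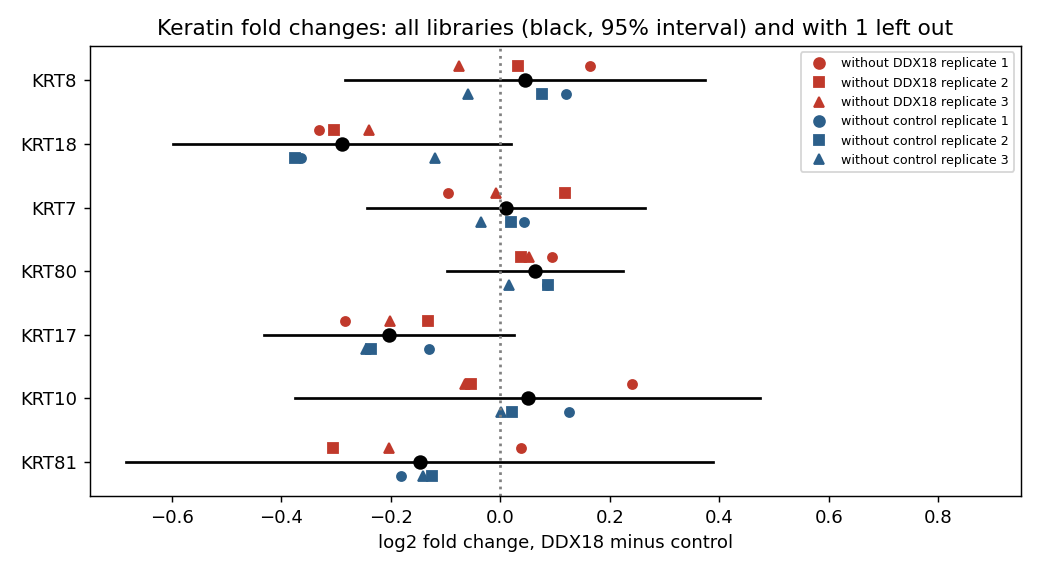
Log2 fold change of each tested keratin (DDX18 minus control) with its 95% interval in black, and the same value with each library left out (coloured symbols). Every interval includes 0, KRT18 shifts from -0.29 to -0.12 without control replicate 3, and KRT10 ranges from -0.065 to 0.24.

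Summed over the 10 members, keratin transcripts differed little between the groups beside their spread. The sum was 3839, 4083 and 4411 CPM in DDX18 replicates 1, 2 and 3 and 4383, 4203 and 4114 CPM in control replicates 1, 2 and 3, or 0.387% to 0.441% of all counts. The means were 4111 ± 287.3 and 4233 ± 136.9 CPM (SD, n = 3), and a two-sided exact permutation test gave p = 0.5, where the smallest p that 3 against 3 libraries allow is 0.1. KRT8 took 44.0%, 51.3% and 54.1% of the members' counts in DDX18 replicates 1, 2 and 3. Its share was 50.05%, 49.5% and 41.5% in control replicates 1, 2 and 3. In the same order KRT18 took 23.4%, 21.4% and 18.04% with DDX18 and 21.3%, 21.85% and 31.2% in the controls. The groups overlapped in both shares.

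The balance between KRT8 and KRT18 also differed between libraries of the same group. KRT8 had 1.88, 2.40 and 3.00 counts per KRT18 count in DDX18 replicates 1, 2 and 3, and 2.35, 2.26 and 1.33 in control replicates 1, 2 and 3. The highest and the lowest ratio belonged to DDX18 replicate 3 and control replicate 3, and the other 4 libraries of both groups lay between. On the log2 scale the DDX18 libraries were 0.31 higher on average (exact permutation p = 0.4, two-sided), a difference of 0.048 without control replicate 3. Summed FPKM of the 4 type II members over that of the 6 type I members was 1.43, 1.44 and 1.71 with DDX18 and 1.44, 1.46 and 0.983 in the controls (exact permutation p = 0.5, two-sided). The group difference of that ratio was 0.26 on the log2 scale, and 0.074 without control replicate 3. Its level depended on the gene length used, and was 1.35 to 2.66 over the libraries per kilobase of principal transcript, where the type II sum was the higher one in all 6 libraries, and 0.996 to 1.83 per kilobase of merged exons, where control replicate 3 was just below 1.

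**Figure D4:**
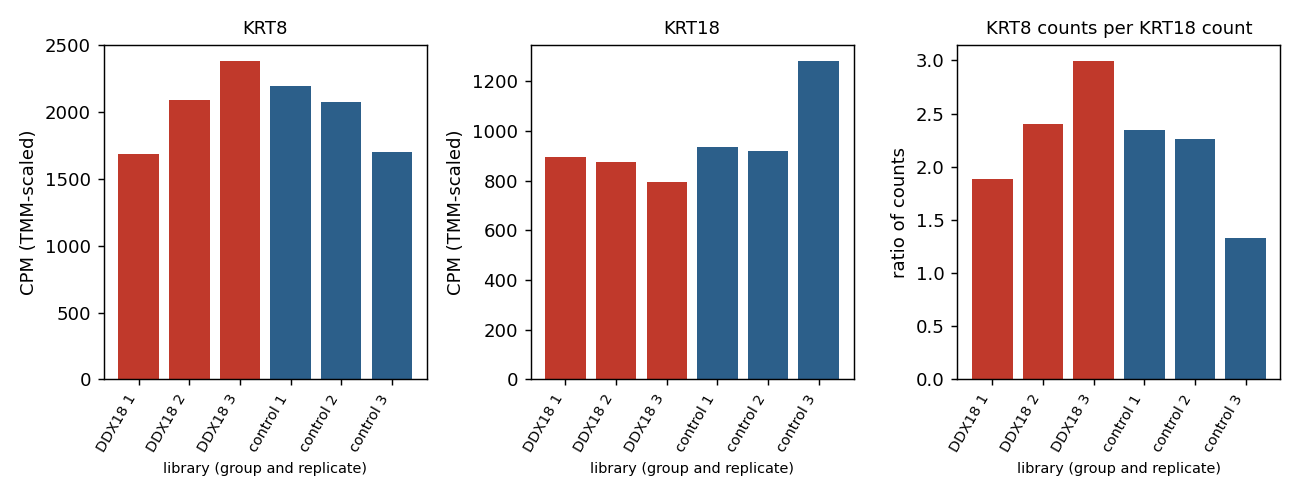
CPM of KRT8 (left) and KRT18 (middle) and KRT8 counts per KRT18 count (right) in each library (red, DDX18; blue, control; bars start at 0). KRT18 is highest and the ratio lowest (1.33) in control replicate 3, and the ratio is highest (3.00) in DDX18 replicate 3.

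Genes that keratin filaments attach to were described from a list of 21 desmosomal, hemidesmosomal and plakin genes, of which 15 were tested. None passed the threshold in edgeR, and DESeq2 called 0. The unadjusted edgeR p was under 0.05 for 1 of the 15, where the share over all genes tested was 5.69%. The log2 fold change was above 0 for 8 genes and below it for 7 (median 0.0092). PLEC, the plakin that links filaments to hemidesmosomes and other cytoskeletal structures, was the most counted (1030 ± 58.7 CPM with DDX18, 948.7 ± 119.8 in the controls). JUP, the desmosomal armadillo protein plakoglobin, measured 675.1 ± 6.70 and 655.1 ± 34.3 CPM, and DSP, the plakin that anchors keratins at desmosomes, 284.0 ± 5.85 and 297.3 ± 24.8 CPM. DST, a plakin of hemidesmosomes and neurons, had the smallest p. It measured 21.1, 20.8 and 19.7 CPM with DDX18 and 24.7, 29.5 and 31.5 CPM in the controls (log2 fold change -0.48, SE 0.113, edgeR adjusted p = 0.671). Its groups did not overlap, which was also so in 11.5% of all genes tested. DSG1, DSG3 and DSC1, desmosomal cadherins of stratified epithelium, had 0 counts in every library.

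The other intermediate filament genes were not called either (9 of 15 tested, 7 positive, 2 negative, median 0.059). VIM averaged 910.3 ± 53.4 and 906.7 ± 56.1 CPM, and the lamins LMNA 700.8 ± 75.5 and 657.1 ± 35.0, LMNB2 333.2 ± 34.4 and 303.8 ± 42.4, and LMNB1 218.9 ± 8.18 and 251.9 ± 27.5 CPM in DDX18 and control libraries. Among 17 genes for keratin-binding proteins and for the caspases that cleave type I keratins, all tested, 0 were called by edgeR. An unadjusted p under 0.05 was found in 1 of the 17, beside 5.69% of all genes tested. Fold changes were positive in 12 and negative in 5, with a median of 0.028. HSPB1, a small heat-shock protein that binds keratins, measured 749.4 ± 33.1 and 765.3 ± 10.7 CPM. The 14-3-3 protein genes YWHAZ (521.0 ± 99.4 and 585.5 ± 28.7 CPM) and YWHAQ (471.7 ± 8.92 and 468.3 ± 21.4 CPM) were the next most counted. YWHAB, another 14-3-3 gene, had the smallest p, and its libraries were 325.7, 148.5 and 351.3 CPM with DDX18 and 184.7, 126.9 and 129.9 CPM in the controls. DDX18 replicate 2 lay among the controls (edgeR adjusted p = 0.841).

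Of 18 regulators of epithelial transcription and splicing, 13 were tested and 0 were called by edgeR. An unadjusted p under 0.05 was found in 1 of the 13, beside 5.69% of all genes tested. Fold changes were positive in 6 and negative in 7, with a median of -0.0052. CEBPB, a leucine zipper transcription factor, measured 163.9 ± 8.55 CPM with DDX18 and 161.2 ± 8.33 in the controls, SP1, a general GC-box factor, 108.7 ± 4.32 and 110.3 ± 4.39, and KLF5, an epithelial Krüppel-like factor, 105.1 ± 14.1 and 106.7 ± 8.93 CPM. GATA6, an endodermal zinc finger factor, had the smallest p. It measured 14.6, 11.9 and 12.9 CPM with DDX18 and 9.2, 9.7 and 10.2 CPM in the controls (log2 fold change 0.44, edgeR adjusted p = 0.800). The GATA6 groups did not overlap, which was also so in 11.5% of all genes tested. ESRP1, an epithelial splicing regulator, had 0 counts in every library.

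For the most abundant keratins the 3 tested genes with the most similar profile were found by Pearson's r of log2 CPM over the 6 libraries. They were NOTCH1 (0.998), DOCK6 (0.993) and PTGR2 (0.989) for KRT7, WDR83 (0.992), ARRDC1 (0.988) and MMP28 (0.986) for KRT8, and METTL8 (0.996), PSME1 (0.989) and IDI1 (0.988) for KRT18. These are the highest coefficients among 15144 tested genes, taken over 6 points that share library and depth, and are given as a description. No other keratin was among them.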

How the data were processed

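The authors deposited 1 table with, per library, whole-number read counts per gene and FPKM (per the file headers). Per the labels' protocols, total RNA went into a SMARTER library kit. Neither aligner nor counter is named, and whether counting used strand is not given in the sources used here. GRCm38 and mm10, both mouse, are the builds in the submitters' processing notes, while the gene IDs and loci of the table are human. Counts were fitted over the whole table with edgeR 4.0.16 (R 4.3.3, filterByExpr, TMM, quasi-likelihood F-test, no covariate), with Benjamini-Hochberg adjustment over 15144 genes. Tested on simulated counts for this comparison (14932 genes), it called 52.2% of genes made to differ 2-fold and 16.4% of those at 1.5-fold. Of its calls there, 7.14% were false. The changed genes were drawn at random from all tested genes, so these shares are not specific to genes as abundant as KRT8. Sums and ratios were tested by exact permutation (SciPy 1.17.1). Alternatives used DESeq2 1.42.0, limma 3.58.1 on log2(FPKM + 1) and log2(FPKM + 0.1), other scalings and filters, a replicate block, and each library left out. Libraries of a group differed by more than counting noise (chi-square per degree of freedom 11.9 to 18.8).

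The members and lists were chosen with earlier results of these data known. Named genes were the members, DDX18, VIM, other keratins with at least 1 CPM, per list the called genes or else the 3 most counted and the one with the smallest p, and the 3 most similar genes for the most abundant keratins and KRT19, which was not tested. Genes named for a count of 0 were chosen after their values were seen. Gene lengths other than that of FPKM were added after seeing the data. Pseudogenes were counted from 10 mean counts. Some sequences and marker genes are not reported here.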

Additional observations from a re-analysis of the deposited data

How the results depend on the processing

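No keratin was called by any of the 15 fits, and no gene of the 6 lists was. The smallest keratin adjusted p over those fits was 0.637 (without control replicate 1). The number of genes called over the whole table was 8, with 4 when no filter on low counts was used, 45 by DESeq2 and 1 with the replicate number as a block, and 3 to 14 when single libraries were left out; the cause was not tested. The replicate numbers are shared by the groups without a stated pairing, and same-numbered libraries did not deviate together (r of -0.0427, 0.0188 and -0.0868), so the block has no basis in the design; under it KRT18 was -0.27. Leaving out libraries turned the sign of KRT7, KRT8, KRT10 and KRT81. KRT7 ranged from -0.095 to 0.12 on the log2 scale, with -0.095, -0.0077 and -0.036 without DDX18 replicate 1, DDX18 replicate 3 and control replicate 3. KRT8 ranged from -0.075 to 0.16, with -0.075 and -0.059 without the last 2 of these libraries. KRT10 ranged from -0.065 to 0.24, with -0.053 and -0.065 without DDX18 replicate 2 or 3, and KRT81 from -0.31 to 0.038, the highest without DDX18 replicate 1. KRT18 (-0.37 to -0.12), KRT17 (-0.28 to -0.13) and KRT80 (0.015 to 0.094) kept their sign in all 15 fits. The summed keratin level, -0.044 on the log2 scale, ranged from -0.096 to 0.0041, the last without DDX18 replicate 1. KRT81 could not be fitted with the filter of 5 CPM in 3 libraries. With 3 libraries a group, the spread between libraries limits the abundant keratins, and counting limits KRT81, KRT19, KRT20 and KRT23.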
